A study of Mus musculus with 6 samples.

Results

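Voltage-gated and related cation channel genes were compared between N2A cells with reduced Pax6 and control cells. N2A is an established mouse neuroblastoma line. A gene was a member if its symbol began with Kcn or Cacn, was Scn followed by a number and a or b, or was Hcn2, Hcn3 or Hcn4. The rule found 130 genes among 19938 with a probe set naming them alone, of which 92 were potassium channel genes, 24 calcium channel genes, 11 sodium channel genes and 3 genes of mixed cation channels. Knockdown cells were transiently transfected with 1.5 µg of a plasmid expressing a short hairpin RNA against Pax6, and the control cells with a non-targeting control vector. The hairpin was expressed from a U6 promoter, RNA was taken from whole cultures 3 days later, and any selection of transfected cells before that is not given in the sources used here. Each group had 3 arrays, described as biological replicates. Values are deposited log2 summaries after robust multi-array averaging (RMA), an array normalization, and each difference is knockdown minus control.

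Voltage-gated channels open or close with membrane potential and set how a nerve cell fires. Sodium channels carry the upstroke of the action potential, potassium channels repolarise the membrane and hold it at rest, calcium channels couple depolarisation to secretion and signalling, and HCN channels carry a pacemaker current that opens on hyperpolarisation. A channel is built from a pore-forming subunit, or several, with auxiliary subunits that change its gating and its transport to the surface. PAX6 is a transcription factor of eye, brain and pancreas development, and the comparison addresses which channel transcripts differ when it is reduced.

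The targeted gene was measured first. Pax6 read 8.48, 8.30 and 8.50 on the knockdown arrays, against 8.79, 8.82 and 8.81 on the control arrays. All knockdown arrays lay below all control arrays. By limma the log2 value fell by 0.38 (SE 0.071, adjusted p = 0.0382, 95% interval of the difference -0.54 to -0.22), and the signal fell by 23.2%. Leaving out knockdown replicate 3 (limma adjusted p = 0.126) or any 1 control replicate (limma adjusted p = 0.120 to 0.180) ended the call. All 9 neuroblastoma markers measured were above the low-value filter. Their mean level was 10.9 to 11.0 on the knockdown arrays and 11.2 to 11.3 on the control arrays. By limma 4 of them, Dbh, Chgb, Isl1 and Chga, were called lower, where 3.88% of all 11424 tested genes were. Differences were positive in 2 of the 9. Astrocyte and immune markers, 4 of each, lay under the array median on all 6 arrays, and of the 15 markers of oligodendrocytes, fibroblasts, endothelium and muscle, 8 passed the filter and 0 were called by limma. In bulk cultures fewer cells of a type and less RNA per cell cannot be told apart, and the part of the marker shift in the channel results was not tested.

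The study lists 1 hairpin oligonucleotide against Pax6. That it was the one used for these arrays is inferred from its being the one listed. Its 19-base antisense strand is in capitals:
Pax6sh896: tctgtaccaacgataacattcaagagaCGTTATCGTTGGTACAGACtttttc
Promoter windows were available in RefSeq (GRCm38.p6) for 99 of the 130 members, each from 250 bases before the transcript start to 50 after it. Those of Hcn2, which rose, and Kcnn3, which fell, are shown with that of Hcn4, a paralog of Hcn2 whose mean was lower in the knockdown. Capitals mark the GC box, GGGCGG on either strand, a motif bound by SP-family factors, and neighbouring boxes run together.
Hcn2, chr10:79716384-79716683, plus strand: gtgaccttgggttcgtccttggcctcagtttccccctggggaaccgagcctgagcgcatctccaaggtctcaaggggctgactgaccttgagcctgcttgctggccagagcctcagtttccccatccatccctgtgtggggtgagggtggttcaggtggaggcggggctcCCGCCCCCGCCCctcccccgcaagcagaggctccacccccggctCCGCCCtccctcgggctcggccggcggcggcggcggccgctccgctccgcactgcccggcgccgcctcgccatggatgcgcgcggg
Hcn4, chr9:58822699-58822998, plus strand: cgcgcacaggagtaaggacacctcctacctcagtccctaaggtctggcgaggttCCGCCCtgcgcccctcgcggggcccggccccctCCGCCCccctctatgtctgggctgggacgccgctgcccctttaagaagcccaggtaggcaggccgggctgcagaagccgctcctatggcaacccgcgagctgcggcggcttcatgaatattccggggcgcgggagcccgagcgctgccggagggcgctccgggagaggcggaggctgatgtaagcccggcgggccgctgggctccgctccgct
Kcnn3, chr3:89519914-89520213, plus strand: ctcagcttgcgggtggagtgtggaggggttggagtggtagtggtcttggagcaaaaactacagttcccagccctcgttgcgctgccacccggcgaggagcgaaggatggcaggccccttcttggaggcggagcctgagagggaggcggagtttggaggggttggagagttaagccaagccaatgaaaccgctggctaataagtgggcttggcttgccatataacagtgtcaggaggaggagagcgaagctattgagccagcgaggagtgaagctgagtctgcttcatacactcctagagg
The Hcn2 window held 3 GC boxes in 300 bases of 72.3% GC, and the Hcn4 window 2 in 71.7% GC. The Kcnn3 window, at 57.7% GC, held 0. The box was in 35.7% of 32851 mouse promoter windows and in 45.5% of the 134 windows of channel genes, whose median GC content was 58.2% against 52.7% over all windows. TTCACGC, the core of a PAX6 paired-domain site, was in 1 of the 134 channel windows (0.746%), that of Kcnab2, and in 1.26% of all windows. TAATNNNATTA, a palindrome bound by paired homeodomains, was in 0 channel windows and 0.487% of all windows. TATAAA was in 5.22% of channel windows and 13.6% of all windows. Both strands were searched, overlaps of different motifs were not removed, and these letters describe the windows without showing binding.

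Of the 130 members, 52 passed the low-value filter, which asked for a value over an array's own median in 3 or more of the 6 arrays. They were 32 potassium, 12 calcium, 5 sodium and 3 HCN genes. Of the 52, 46 were above the median on all 6 arrays, and 0 passed only through the arrays of 1 group. At a false discovery rate (FDR) of 10% in limma, 1 channel gene rose, Hcn2, and 3 fell, Scn3b, Kcnn3 and Kcnab3. Over all 11424 tested genes 2.79% were higher and 3.88% lower, so 1 of 52 and 3 of 52 are near the background. The median log2 fold change of the 52 was -0.032, against 0.017 over all tested genes, and their median absolute log2 difference was 0.083 against 0.086. Differences were negative in 32 (61.5%) and positive in 20, where 44.5% of all tested genes had negative ones. At an unadjusted limma p under 0.05 there were 1 higher and 9 lower, against 1067 higher and 1079 lower of all 11424 tested genes. All knockdown arrays lay above all control arrays in 2 members, where this held for 13.9% of tested genes. They lay below all control arrays in 10 members, or 19.2%, where this held for 11.7% of tested genes.

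Arrays of the 2 groups with the same replicate number deviated together across genes, and limma with the replicate number as a block called 1 channel gene higher and 9 lower. The background was then 8.96% higher and 8.91% lower, so 9 of 52 (17.3%) exceeded the background share for falls and 1 of 52 lay below that for rises. The block added Scn9a, Cacna1g, Cacna1i, Hcn4, Kcnk1 and Kcnmb2 to the falls. Within the numbered pairs, 17 of the 52 members had negative differences in all 3 pairs and 5 had positive ones. The share over all tested genes was not counted, so these 2 counts have no background to be read against. The shared-number check over the 52 members alone was uneven, with correlations of deviations of 0.23 for number 1, -0.040 for number 2 and 0.29 for number 3.

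**Figure D1:**
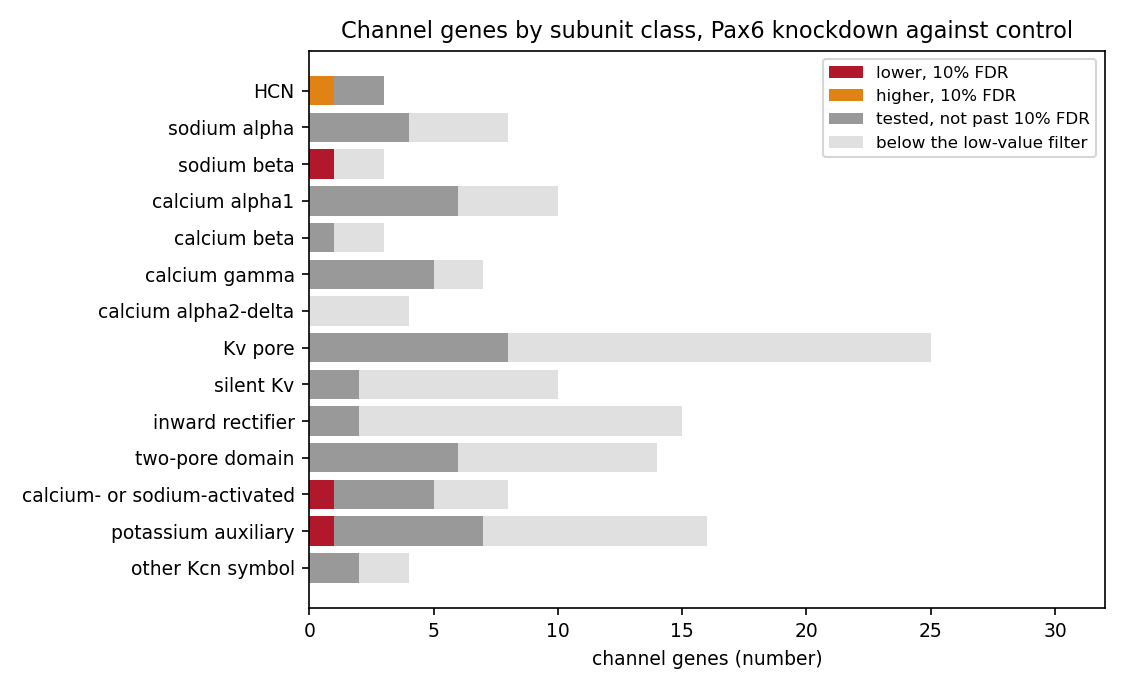
The bars count channel genes (horizontal axis, number of genes) in each subunit class, split into those lower or higher in Pax6 knockdown than in control cells at 10% FDR in limma, those tested and not called, and those below the low-value filter. HCN genes were the class with all 3 members tested, the 4 alpha2-delta genes were all below the filter, and calls fell in 4 classes with 1 each.

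All 3 HCN genes analysed here were tested. Hcn2, a brain pacemaker channel subunit, read 10.39, 10.48 and 10.70 on the knockdown arrays, against 9.96, 10.22 and 10.18 on the control arrays. Every knockdown array was above every control array, with control replicate 1 the lowest and knockdown replicate 3 the highest. Hcn2 rose by 0.41 on the log2 scale (SE 0.10, limma adjusted p = 0.0828, 95% interval 0.17 to 0.64), a 32.4% higher signal. The block gave an adjusted p of 0.0174. The call held without knockdown replicate 1 or 2 (limma adjusted p = 0.0776 and 0.0799). It was lost without knockdown replicate 3 (limma adjusted p = 0.255) or without control replicate 1, 2 or 3 (limma adjusted p = 0.210, 0.200 and 0.193). Over all 16 alternatives the log2 fold change stayed between 0.32 and 0.51. The block, the filters and the variance trend cannot change it, and the mean of probe sets left it at 0.4052.

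Hcn4, the main pacemaker channel of the sinoatrial node, lay on the other side. It read 9.95, 10.01 and 10.10 on the knockdown arrays and 10.07, 10.30 and 10.34 on the control arrays. Knockdown replicate 3 was above control replicate 1, so the groups overlapped, although each knockdown array was below the control array of its number. The log2 difference was -0.22 (SE 0.086, limma adjusted p = 0.229), and with the replicate block the adjusted p was 0.0593. Hcn3 read 9.32, 9.08 and 9.20 on the knockdown arrays and 9.27, 9.29 and 9.27 on the control arrays, a log2 difference of -0.08 (SE 0.073, limma adjusted p = 0.670). Whether the Hcn2 and Hcn4 differences differ from each other was not tested. In all 16 alternatives Hcn2 was the HCN gene with a positive difference, and Hcn3 and Hcn4, where tested, had negative ones. The block, the filters and the variance trend could not change these signs.

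**Figure D2:**
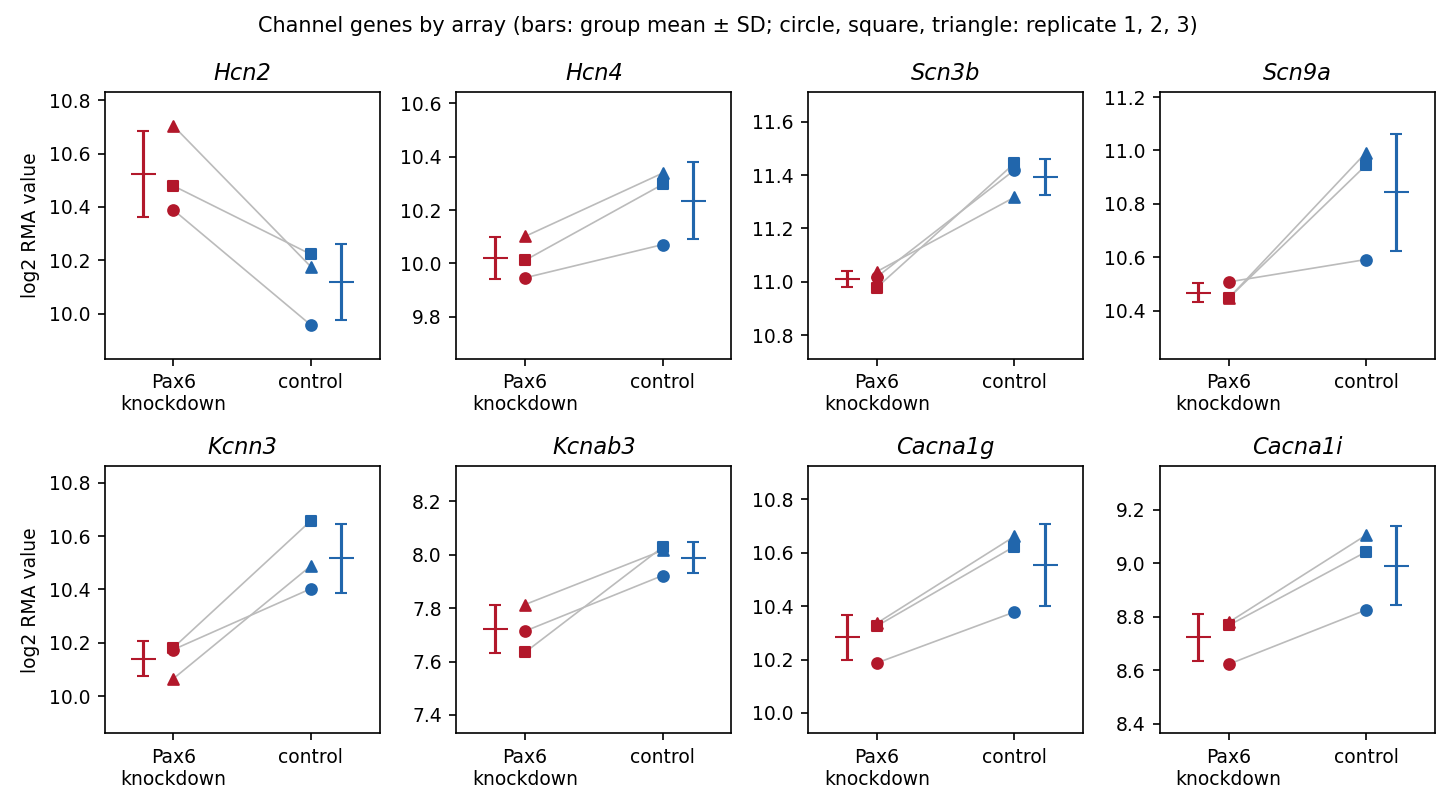
Each panel shows 1 channel gene, with the log2 RMA value of each array (vertical axis, 1 log2 unit tall in every panel), knockdown arrays left of control arrays, grey lines joining arrays of 1 replicate number, and bars for the mean ± SD of 3 arrays. Hcn2 is the panel in which knockdown arrays are all above control arrays, Hcn4 is the panel in which the groups overlap, and in the other 6 all knockdown arrays are below all control arrays.

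Of 11 sodium channel genes, 4 of 8 alpha genes, which form the pore, and 1 of 3 beta genes passed the filter. Scn3b encodes the beta3 subunit, an immunoglobulin-domain partner that alters gating and surface delivery of the pore. It read 11.02, 10.98 and 11.04 on the knockdown arrays, against 11.42, 11.44 and 11.32 on the control arrays. The groups were apart by more than their spread, with means of 11.01 ± 0.030 and 11.39 ± 0.067 (SD, n = 3 each). Scn3b fell by 0.38 on the log2 scale (SE 0.061, limma adjusted p = 0.0251, 95% interval of the difference -0.52 to -0.24), and the block gave an adjusted p of 0.0151. The call was lost without knockdown replicate 3 (limma adjusted p = 0.121) or control replicate 2 (limma adjusted p = 0.151) and held in the other 4 fits that left out 1 array. It was kept in 13 of 16 alternatives.

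Scn9a, a sodium channel of sympathetic and pain-sensing neurons, read 10.51, 10.45 and 10.45 on the knockdown arrays and 10.59, 10.95 and 10.99 on the control arrays. The groups did not overlap, but control replicate 1 lay 0.08 above its numbered knockdown array while control replicates 2 and 3 lay 0.50 and 0.55 above theirs. The log2 difference was -0.38 (SE 0.11, limma adjusted p = 0.105), just outside the threshold. With the block the adjusted p was 0.0473, without control replicate 1 it was 0.0454, and over the 16 alternatives it ran from 0.00278 to 0.336 with 8 past 10% FDR. A second probe set of Scn9a alone read 9.52, 9.59 and 9.62 on the knockdown arrays and 9.98, 10.22 and 10.34 on the control arrays. Its log2 difference was -0.60 (SE 0.098, limma adjusted p = 0.0604 in a fit over all probe sets, where the first had a limma adjusted p = 0.187). Both probe sets of Scn9a alone had every knockdown array lower. The groups overlapped on a probe set naming Scn9a and Scn3a together, and on that naming Scn2a, Scn9a and Scn3a. The former read 8.76, 7.99 and 8.38 on the knockdown arrays and 8.66, 8.36 and 8.59 on the control arrays. Its log2 difference was -0.16 (limma adjusted p = 0.806 in the fit over all probe sets).

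The other 3 tested alpha genes, Scn2a, Scn3a and Scn8a, which encode brain sodium channels, overlapped between groups, with log2 differences from -0.10 to 0.11. Scn2a had 14 probe sets of its own, more than any other member. Their differences ran from -0.13 to 0.12, 7 above and 7 below 0, and in 0 of them were the groups apart. Knockdown replicate 1 was the highest of the 6 arrays on 10 of these probe sets, and knockdown replicate 2 the lowest on 9, with an SD among knockdown arrays of up to 0.53. The same order appeared on the probe set that names Scn2a, Scn9a and Scn3a together, which read 9.80, 8.69 and 9.26 on the knockdown arrays and 9.69, 9.16 and 9.35 on the control arrays.

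**Figure D3:**
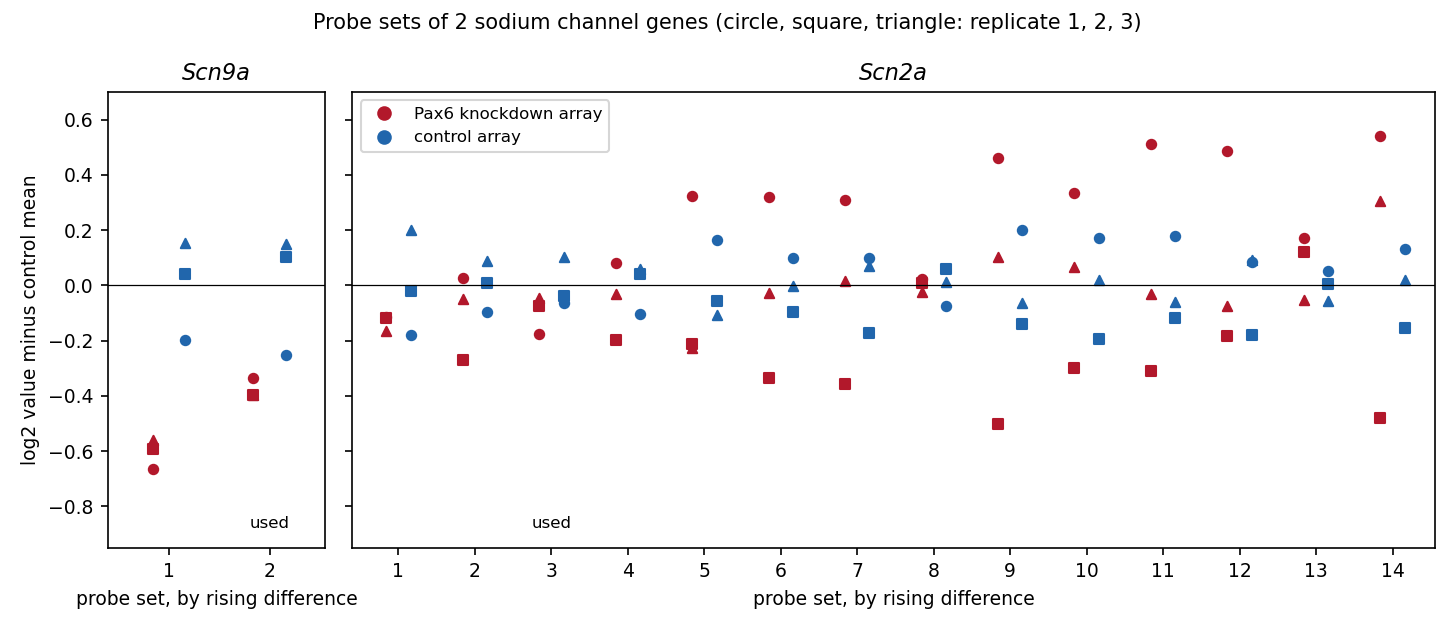
The vertical axis is the log2 value minus the mean of the 3 control arrays, for each array and each probe set naming Scn9a alone or Scn2a alone (horizontal axis, probe sets ordered by knockdown minus control), knockdown left of control. The word used marks the probe set kept for the gene. On both Scn9a probe sets the knockdown arrays lie below the control arrays, and on 9 of the 14 Scn2a probe sets the knockdown arrays reach both above and below all control arrays.

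Of 24 calcium channel genes, 12 were tested, and 0 passed 10% FDR in limma without the block. At an unadjusted limma p under 0.05, 3 were lower and 0 higher, against 1079 lower and 1067 higher of all 11424 tested genes. Of 10 pore-forming alpha1 genes 4 were below the filter and are left out here, and the 6 tested all had lower means in the knockdown. These 6, Cacna1a, Cacna1b, Cacna1c, Cacna1g, Cacna1h and Cacna1i, had log2 differences from -0.27 to -0.08 with a median of -0.15, and in 4 of them all knockdown arrays were below all control arrays. Such a separation held for 11.7% of all tested genes. Those of the 6 that each alternative tested were negative in all 16 alternatives. The block, the filters and the variance trend could not change these signs. The 2 largest differences were in genes of T-type channels, which open near resting potential and support burst firing.

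Cacna1g read 10.19, 10.33 and 10.34 on the knockdown arrays and 10.38, 10.62 and 10.66 on the control arrays. Cacna1i read 8.62, 8.77 and 8.78 on the knockdown arrays and 8.83, 9.04 and 9.11 on the control arrays. In both genes replicate 1 was the lowest array of its group, and each knockdown array was below every control array. The log2 difference was -0.27 in each (SE 0.089 for Cacna1g and 0.088 for Cacna1i), with limma adjusted p-values of 0.150 and 0.149. With the replicate block these were 0.0305 and 0.0294, and over the alternatives they ran from 0.00993 to 0.411 for Cacna1g and from 0.0107 to 0.400 for Cacna1i. Cacna1h, the remaining T-type gene, had a log2 difference of -0.09 (limma adjusted p = 0.521).

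Cacna1b, the N-type channel of nerve terminals, read 10.94, 10.98 and 10.96 on the knockdown arrays and 11.00, 11.25 and 11.20 on the control arrays. The control arrays spread more than the knockdown arrays, and the difference of -0.19 did not pass (SE 0.077, limma adjusted p = 0.236, with the block 0.102). Cacna1a, of P/Q-type channels, and Cacna1c, of L-type channels, had differences of -0.12 and -0.08. Auxiliary genes showed no such common sign. Cacnb1, the 1 beta gene tested, had a difference of 0.08 (limma adjusted p = 0.646), and the 4 alpha2-delta genes were below the filter. The 5 tested gamma genes, Cacng2, Cacng3, Cacng4, Cacng7 and Cacng8, which encode AMPA receptor auxiliary proteins, had differences from -0.07 to 0.11 and 0 calls, also with the block. Cacng3 read 12.69, 12.55 and 12.57 on the knockdown arrays and 12.59, 12.50 and 12.39 on the control arrays, so its groups overlapped.

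Of 92 potassium channel genes, 32 were tested, with 2 lower and 0 higher. Kcnn3 encodes SK3, a small-conductance channel that opens on calcium and contributes to the hyperpolarisation after spikes. It read 10.17, 10.18 and 10.07 on the knockdown arrays, against 10.40, 10.66 and 10.49 on the control arrays. All knockdown arrays were lower, with control replicate 2 the highest. Kcnn3 fell by 0.38 on the log2 scale (SE 0.080, 95% confidence interval -0.56 to -0.19, limma adjusted p = 0.0540, block 0.0196). Its call was lost without knockdown replicate 3 (limma adjusted p = 0.207), control replicate 2 (limma adjusted p = 0.200) or control replicate 3 (limma adjusted p = 0.161). The other tested genes of the calcium- or sodium-activated class, Kcnn1, Kcnn2, Kcnn4 and Kcnma1, had log2 differences from -0.14 to 0.05 and were not called. Kcnma1, the pore of the large-conductance BK channel, read 13.60, 13.60 and 13.62 on the knockdown arrays and 13.61, 13.71 and 13.75 on the control arrays, which overlapped.

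Auxiliary potassium channel genes held the other fall. Kcnab3, a cytoplasmic beta subunit of shaker-type channels, read 7.71, 7.63 and 7.81 on the knockdown arrays, against 7.92, 8.03 and 8.02 on the control arrays. The groups did not overlap, and all 6 values were less than 1 log2 unit above the array medians of 7.49 to 7.59. Kcnab3 fell by 0.27 (SE 0.069, 95% confidence interval -0.43 to -0.11, limma adjusted p = 0.0862, block 0.0395). It was called in 4 of 15 alternatives and in 0 of the 6 fits that left out 1 array, knockdown or control (limma adjusted p = 0.105 to 0.296). Its paralog Kcnab1 had a log2 difference of 0.16 (limma adjusted p = 0.371) and Kcnab2 one of 0.01. Kcnmb2, a beta subunit of BK channels, read 9.40, 8.82 and 9.02 on the knockdown arrays and 9.50, 9.21 and 9.19 on the control arrays. The arrays numbered 1 were the highest of both groups, so its difference of -0.22 had a limma adjusted p of 0.507, and of 0.0907 with the block.

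Pore-forming genes of the other potassium classes had 0 calls without the block. The 8 tested Kv pore genes had log2 differences from -0.13 to 0.10, with Kcnh4 and Kcnh3, of the ether-a-go-go-like channels, at -0.13 and -0.12 (limma adjusted p = 0.278 and 0.379). Among these 8, Kcnh4 was the gene whose groups did not overlap, at 9.32, 9.38 and 9.35 on the knockdown arrays and 9.44, 9.46 and 9.54 on the control arrays. Among 6 two-pore domain genes, which carry leak current, Kcnk1 read 8.49, 8.50 and 8.35 on the knockdown arrays and 8.79, 8.72 and 8.54 on the control arrays. Replicate 3 was the lowest array of both groups, and the difference of -0.24 had a limma adjusted p of 0.168, and of 0.0401 with the block. Kcnk3, an acid-sensitive leak channel, was the tested member besides Hcn2 whose knockdown arrays were all above the control arrays, at 10.19, 10.20 and 10.14 against 10.05, 10.10 and 10.14 on the control arrays. Its difference was 0.08 (limma adjusted p = 0.522). The silent subunits Kcng1 and Kcng2, which modify other Kv channels, had differences of -0.07 and 0.05. The inward rectifiers Kcnj9 and Kcnj11, of G protein-gated and ATP-sensitive channels, had -0.06 and 0.00, and the antisense transcripts Kcnd3os and Kcnmb4os2 had -0.03 and -0.02, all overlapping between groups.

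**Figure D4:**
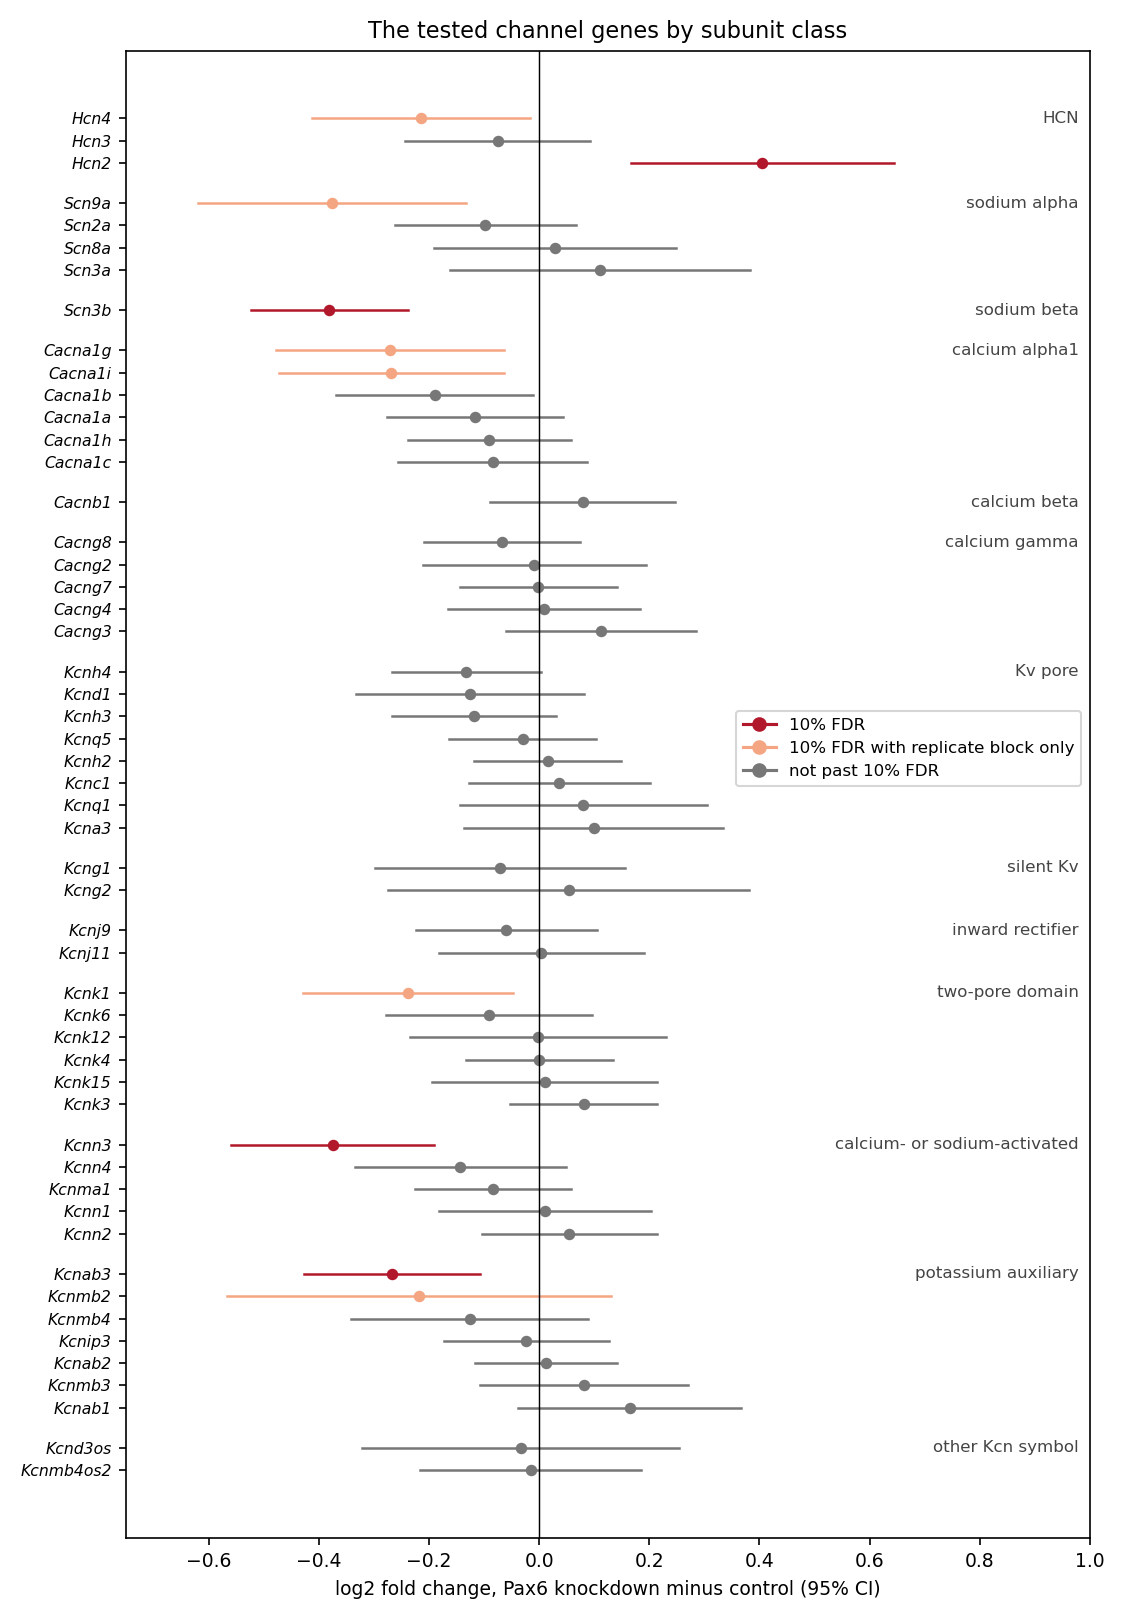
Each point is the log2 fold change of 1 of the 52 tested channel genes (horizontal axis, Pax6 knockdown minus control) with the 95% confidence interval of the limma fit without the block, grouped by subunit class down the page. The 3 falls and the 1 rise at 10% FDR are dark red, the 6 genes called with the replicate block alone are orange, and all 6 calcium alpha1 points lie left of 0.

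The remaining 78 members were below the filter, 74 of them under the median on all 6 arrays, and were not tested in the main fit. The nearest members above the threshold by mean were Kcnmb4os2, at 7.58, 7.53 and 7.45 on the knockdown arrays and 7.64, 7.36 and 7.60 on the control arrays, and Kcnq1. The nearest below were Kcns3, at 7.55, 7.41 and 7.54 on the knockdown arrays and 7.62, 7.45 and 7.55 on the control arrays, and Kcnk5. Of the 78, 2 had all knockdown arrays above and 3 (Kcng4, Scn7a and Cacng1) all knockdown arrays below the control arrays. Over the 11424 genes above the filter such separations held for 13.9% and 11.7%. The share over all genes below the filter was not counted. Most inward rectifiers (13 of 15), silent Kv subunits (8 of 10) and Kv pore genes (17 of 25) were in this group.

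Genes that work beside these channels were counted in the same fit, where the background was 2.79% higher and 3.88% lower, and 8.96% and 8.91% with the block. Of 20 tested genes of other cation channel families, 0 rose and 2 fell, with a median of -0.076 on the log2 scale. These were Trpc7, a channel opened by lipid signalling, and Cnga3, a cyclic nucleotide-gated channel. Trpc7 read 9.26, 9.19 and 9.19 on the knockdown arrays and 9.75, 10.01 and 9.94 on the control arrays (log2 fold change -0.68, SE 0.078, limma adjusted p = 0.00889). Cnga3 fell by 0.38 (SE 0.079, limma adjusted p = 0.0478). Of 26 tested channel partners 2 rose and 4 fell, with a median of 0.051, and with the block 6 rose and 5 fell. The falls were Lgi1, a secreted partner of synaptic complexes that also acts on shaker-type channels, Lrrc55, a gamma subunit of BK channels, Nfasc, which anchors sodium channels at the initial segment, and Lgi3. Lrrc55 read 7.79, 7.66 and 7.77 on the knockdown arrays and 8.30, 8.34 and 8.25 on the control arrays, so the groups were well apart (log2 fold change -0.55, SE 0.063, limma adjusted p = 0.00889). The knockdown values of Lrrc55 and Nfasc lay near the array medians of 7.49 to 7.59. The pore of the BK channel, Kcnma1, was not called. Lgi1 fell by 0.90 (SE 0.079, limma adjusted p = 0.00345), and the rises were Stac2 and Unc80, by 0.22 and 0.24.

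Of 32 tested calcium handling genes 0 rose and 1 fell, the neuronal calcium sensor gene Hpca, by 0.33 (SE 0.059, limma adjusted p = 0.0330), and with the block 2 rose and 3 fell. Of 20 tested chloride channel genes 1 rose (Lrrc8d, by 0.27) and 3 fell (Clcn2, Clcn5 and Ano6, with log2 fold changes of -0.45, -0.40 and -0.22), and with the block 2 rose and 4 fell. Of 12 tested ligand-gated channel genes 0 rose and 6 fell, with a median of -0.26. The 6 were Chrna3, Htr3a, P2rx7, Chrna7, Gria2 and Chrnb2, and whether this share differs from that of other genes was not tested. Of the called genes of these 5 lists, Trpc7, Lgi1, Lrrc55 and Chrna3 stayed past 10% FDR in all 6 fits that left out 1 array, with highest limma adjusted p-values of 0.0706, 0.0346, 0.0732 and 0.0453, and the other 15 lost their calls in at least 1 of them.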

How the data were processed

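Total RNA (200 ng per sample) from 3 knockdown and 3 control cultures was hybridised to Affymetrix Mouse Gene 1.0 ST arrays. The authors deposited log2 values after RMA background correction and quantile normalization. Which software versions and annotation build they used is not given in the sources used here. By construction, quantile normalization hides a change in total RNA per cell, and RMA compresses differences near background. The number of arrays limits the precision.

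Of 35556 probe sets, 21789 had 1 gene symbol in the platform annotation, 1621 several and 12146 none. A gene's probe set with the highest mean over 6 arrays was kept, giving 19938 genes, and 11424 passed the filter. The groups were compared in R 4.3.3 with limma 3.58.1 (lmFit and eBayes, the test of the study's methods, two-sided, with Benjamini-Hochberg adjustment over all tested genes and the study's 10% FDR). The procedure was run on simulated data with independent noise and no shared effect of replicate number. That run does not show whether the 10% FDR holds for these arrays. Overlapping or antisense genes and close paralogs may share probes.

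Members and lists were chosen with earlier results of these data known. The genes named were Pax6, Hcn2, Scn3b, called members, up to 2 lowest p in classes with no call, 5 members with the highest control means, 2 on each side of the filter, and up to 4 called genes per related list. Other names were chosen after their values were seen.

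Knockdown and control labels share replicate numbers without saying what they mark. Deviations from group means correlated at 0.57, 0.32 and 0.23 within numbers 1, 2 and 3 over tested genes, all above 0.1. Samples of 1 number were therefore paired in the block alternative and the pair differences, and the main fit used no block. Knockdown replicate 2 with control replicate 3 also reached 0.18. Alternatives were this block, 4 filters, the mean of probe sets, centring, a second quantile normalization, array weights, a variance trend and leaving out each array. Amounts and times come from the labels. Promoters came from RefSeq and the hairpin from the study's oligonucleotide list.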

Additional observations from a re-analysis of the deposited data

Results flagged for a closer look

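Groups of 3 arrays are too small for a search for single outlying arrays. Among the 78 channel genes below the low-value filter, 2 were noted because all knockdown arrays lay above all control arrays. The main fit did not use these values. Kcnh1, an ether-a-go-go potassium channel gene, read 7.30, 7.28 and 7.12 on the knockdown arrays and 7.03, 6.92 and 7.10 on the control arrays, a log2 difference of 0.215. Kcna7, a shaker-type potassium channel gene, read 7.70, 7.39 and 7.39 on the knockdown arrays and 7.39, 7.31 and 7.36 on the control arrays, a difference of 0.139. Neither was tested. Among all genes tested in the main fit such a separation was found in 13.9%, and the share over genes below the filter was not counted.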

How the results depend on the processing

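Across all genes 762 were called, against 2042 with the replicate block, 245 with no low-value filter, 389 with a 25th percentile filter, 136 with a variance filter, 1383 after a second quantile normalization and 4239 with array weights, and from 51 to 1285 when 1 array was left out. Channel genes called higher numbered 1, against 0 with no low-value filter, the 25th percentile filter or the variance filter, 3 with array weights and 0 to 1 when 1 array was left out. Channel genes called lower numbered 3, against 9 with the replicate block, 1 with no low-value filter, 0 with the variance filter, 14 with array weights and 0 to 3 when 1 array was left out. Without knockdown replicate 3 or control replicate 2, 0 channel genes were called, and 56 and 51 genes in all. With array weights knockdown replicate 3 had a weight of 5.38 and the other arrays 0.313 to 2.02. No-filter and variance-filter fits tested 19938 and 9969 genes, against 11424 in the main fit. The cause of the shifts was not tested. Scn3b kept its call under all alternatives but the variance filter and those 2 left-out arrays. Of the alternative values of named genes 324 kept direction and side of the threshold, 31 lost a call, 20 gained one and 16 turned sign. Kcnab3 lost its call with array centring (limma adjusted p = 0.127) and the variance trend (limma adjusted p = 0.118), where Scn9a was called in its place. Of the 52 tested channel genes 18 turned sign in at least 1 alternative, all with log2 differences of at most 0.11 in size, among them Cacng2, Cacng4, Scn8a, Scn3a, Kcnn1 and Kcnab2. The 16 turns belong to 5 genes. Kcnj11 was -0.0422 with array weights and -0.0749 to 0.0436 without 1 array. Kcnd3os was 0.0348 with array weights and -0.1857 to 0.0436 without 1 array. Kcnmb4os2 was -0.1041 to 0.0379, Kcng2 -0.1209 to 0.1661 and Cacng7 -0.0406 to 0.0232 without 1 array, and Cacng7 was 0.0031 with array centring. Low signal limits the 78 genes below the filter and called genes near the array medians, among them Kcnab3, Lrrc55 and Nfasc, where RMA compresses differences.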
